A study of Mus musculus with 6 samples.

Results

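The 50 genes described here encode the machinery of mitosis: regulators of mitotic entry, spindle checkpoint proteins, kinetochore and centromere proteins, spindle motors and the proteins that finish cell division. They were chosen by symbol, and all 50 were found among the 48368 symbols of the count tables. All 50 also passed the filter on low counts, which left 17584 genes to be tested. RNA was sequenced from cancer-associated fibroblasts, the stromal cells that surround a carcinoma, grown in culture from mammary tumours of MMTV-PyMT mice. In these mice the mammary tumour virus promoter drives the polyomavirus middle T antigen, and tumours arise in the mammary epithelium. Both groups carried this transgene, 3 libraries were labelled Hic-5+/- (HET), and 3 were labelled Hic-5-/- (KO). No treatment was named and the ages and strain of the mice were not stated in the labels. The cells were separated from tumour organoids by centrifugation and cultured, so no sort on a marker defined them. Tgfb1i1 encodes Hic-5, a LIM-domain protein that binds partners at focal adhesions.

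During a cell cycle, most mitotic genes are silent in resting and early-cycle cells and are transcribed together before division. FOXM1, B-MYB and the MuvB core activate them, while the DREAM complex holds them down in cells that do not divide. In a cultured fibroblast population, their summed RNA therefore depends on how many cells are cycling and on how much RNA each of these cells holds. In bulk libraries, fewer dividing cells and less mitotic RNA per cell cannot be told apart.

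The labels and the cell type did not hold equally well in every library. Tgfb1i1 had 222.7, 348.1 and 124.8 CPM (estimated counts brought to a common library size with TMM factors) in HET replicates 1, 2 and 3. The KO libraries, in the same order, had 90.4, 0.232 and 156.1 CPM, so the transcript was nearly absent from KO replicate 2 alone. A log2 fold change of -1.5 ± 1.54 (SE) had an adjusted p of 0.756 by edgeR's quasi-likelihood method. Gene totals do not tell transcript of a disrupted allele from intact transcript. The fibroblast markers did not move together in KO replicate 2. Among them, Col1a2 (type I collagen) had 0.491 CPM there against 577.1 CPM or more in each other library. Col1a1 (2.56 CPM), Thy1 (0.981 CPM), Dcn (0.775 CPM) and Acta2 (45.5 CPM) were also lowest there. Elsewhere these had at least 274.1, 75.7, 55.0 and 1338 CPM. Lum, Sparc, Pdgfra and Pdgfrb were lowest there too. Vim (2870 CPM), Fn1 (4176 CPM), Postn (439.8 CPM), Col3a1, Col5a1 and Fap lay within the range of the others. The 15 fibroblast markers summed to 9094 CPM in KO replicate 2, and in the other libraries to between 9409 CPM (KO replicate 1) and 39476 CPM (HET replicate 1). All 18 epithelial markers exceeded 3 counts in KO replicate 2, against 10 to 16 elsewhere. Summed leukocyte markers (14 genes) reached 1615 CPM in HET replicate 2, and in KO replicate 3 they reached 1175 CPM, against 17.3 to 50.6 CPM elsewhere. Library totals ran from 24954273 to 42470598 estimated counts.

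All 50 mitotic genes had a higher fitted level in the KO libraries than in the HET libraries, against 50.9% of all genes tested. Their median log2 fold change was 0.93, against 0.01 over all genes, and it ran from 0.23 for Cdc25c to 1.48 for Cenpk. None of the 50 passed the adjusted threshold of 0.05 in the edgeR fit, where 0.0% of all genes were called, and the smallest adjusted p among them was 0.585 for Bub3. None of them had an unadjusted p under 0.05 in edgeR either, against 8.59% of all genes (4.3% of all genes with the KO label higher). DESeq2, which called 1.36% of all genes, called no mitotic gene of the 50 and put 2 of them (11.1% of all genes) at an unadjusted p under 0.05. Limma-voom, which called 0.0% of all genes, called none of the 50 and put 2 of them (8.75% of all genes) at an unadjusted p under 0.05. The median standard error was 0.73 on the log2 scale, close in size to the fold changes themselves.

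The shared direction held without any 1 library for at least 47 of the 50 genes, and its size moved with a few libraries. HET replicate 2 was the lowest of the 6 libraries for 50 of 50 genes, while it was the lowest for 21.7% of all genes tested. KO replicate 2 was the highest for 44 of 50, against 26.3% of all genes. With HET replicate 2 alone left out, 47 of 50 had a positive fold change and the median was 0.49. With KO replicate 2 alone left out, 48 of 50 were positive and the median was 0.41, and with HET replicate 1 alone left out, 50 of 50 were positive and the median was 1.73. With HET replicate 2 and KO replicate 2 both left out, 23 of the 50 were positive and 27 negative, and the median was -0.0045. That pair was chosen after the data were seen, as the lowest HET and the highest KO library, so leaving it out lowers the difference by construction.

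**Figure D1:**
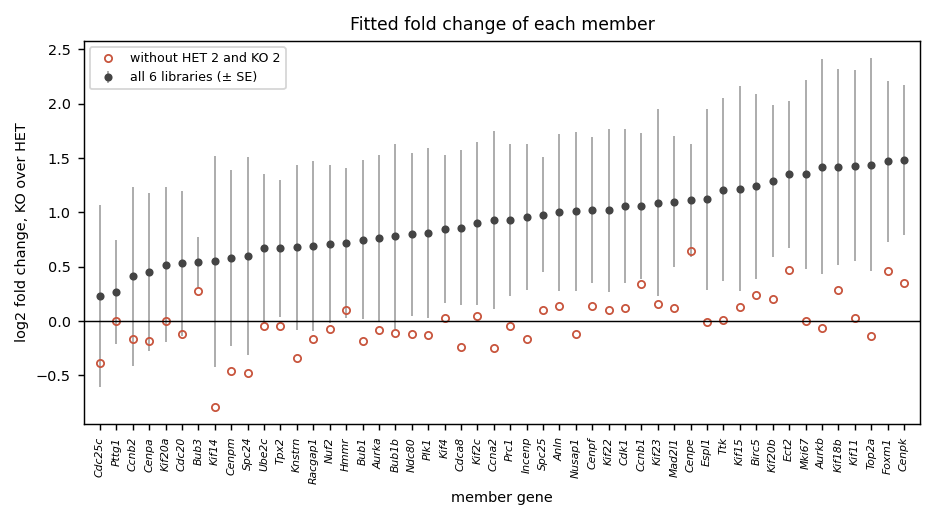
Log2 fold change of KO over HET (y axis) for each of the 50 mitotic genes (x axis, sorted), from edgeR. Filled points with bars give all 6 libraries ± SE, and open circles give the fit without HET replicate 2 and KO replicate 2. The filled points all lie above 0, between 0.23 and 1.48, and 27 of the open circles lie below it.

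Averaged over the 50 genes, the log2 level minus each gene's own mean over the 6 libraries was 0.71, -2.12 and -0.38 for HET 1, HET 2 and HET 3. The same average was 0.48, 1.37 and -0.06 for KO 1, KO 2 and KO 3. HET replicate 1 thus lay above KO replicates 1 and 3, and the groups overlapped. The SD of this average was 1.43 within HET and 0.72 within KO, and the difference between the group means was 1.2. In summed CPM the 50 genes took 2451, 402.5 and 1159 CPM in the HET libraries and 2147, 4264 and 1488 CPM in the KO libraries.

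Libraries of the same label differed widely. HET replicate 1 exceeded HET replicate 2 by a median ratio of 7.78, from 1.13 for Bub3 to 15.2 for Kif15. HET replicate 3 exceeded HET replicate 2 by a median of 3.6, again in 50 of 50 genes. Within the KO label, KO replicate 2 exceeded KO replicate 3 in 50 of 50 genes, by a median of 2.74. Across labels, KO replicate 1 was above HET replicate 1 for only 13 of 50 genes (median ratio 0.864), whereas it was above HET replicate 3 for 50 of 50 (median 1.81). HET replicate 3 and KO replicate 3, whose titles share a number, differed by a median ratio of 1.3, with KO replicate 3 higher for 43 of 50 genes. The order of the libraries was also shared. In 26 of the 50 genes it ran HET 2, HET 3, KO 3, KO 1, HET 1, KO 2 from low to high, an order that 1.48% of all genes tested followed.

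**Figure D2:**
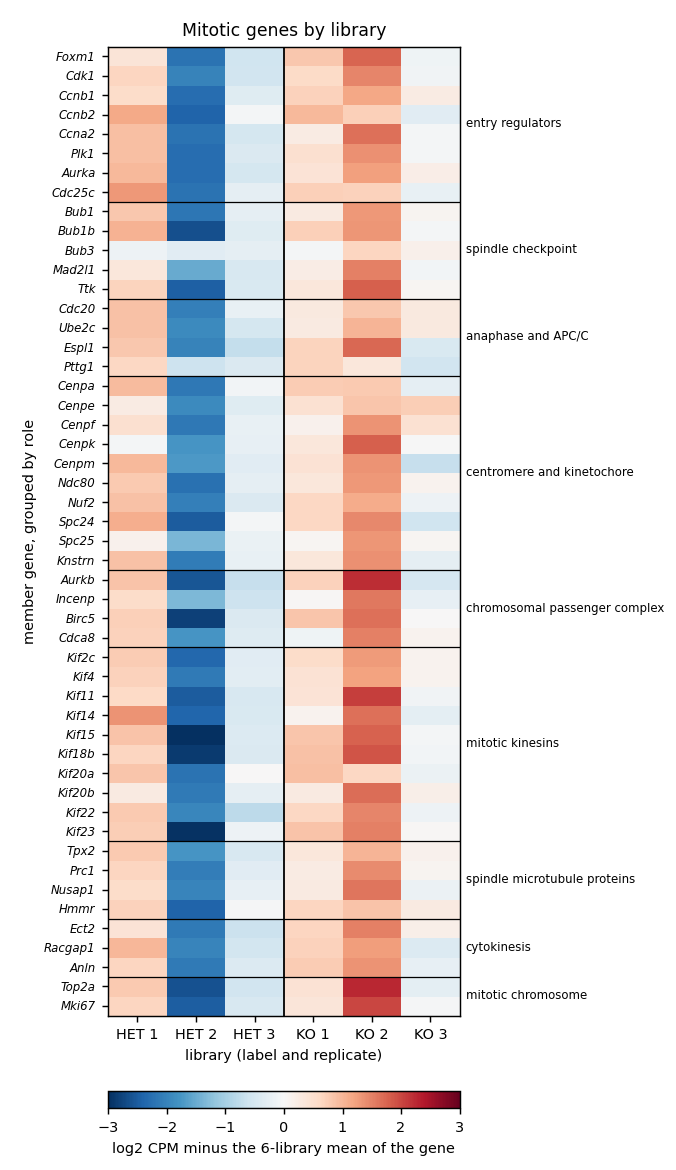
Log2 CPM of each mitotic gene in each library minus the gene's mean over the 6 libraries (colour scale), with genes as rows grouped by role and libraries as columns. The HET 2 column is the lowest in every row, and the KO 2 column is the highest in 44 of the 50 rows.

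Markers of other cells also differed between these libraries. HET replicate 2, the lowest library for mitotic genes, had 12 of 14 leukocyte markers above 3 counts with Cd3e at 0. Its pericyte and smooth muscle markers (10 genes) summed to 391.3 CPM against 38.3 to 110.8 CPM elsewhere, and Myh11 alone supplied 244.3 CPM of that sum. The list did not move as a set. Mcam had 76.3 CPM in both HET replicate 2 and KO replicate 2. Cspg4 was highest in KO replicate 3, Rgs5 in KO replicate 1, and Des and Notch3 in HET replicate 1. KO replicate 3 also had 12 of 14 leukocyte markers above 3 counts with Cd3e at 0, but its mitotic average was -0.06, near the middle of the 6. KO replicate 2, the highest library for most mitotic genes, also had the highest level of 7 of the 10 epithelial markers tested, and all 18 listed summed to 150.3 CPM against 28.3 to 98.5 CPM in the others. Among them Krt18 had 37.9 CPM there and at most 2.93 CPM elsewhere. Krt19 went the other way, with 0.542 CPM in KO replicate 2 and 13.0 to 64.1 CPM elsewhere, and it supplied 64.1 of the 98.5 CPM in HET replicate 1. Their part in the mitotic levels was not tested.

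The promoters of these genes often held sequence elements already known from cell cycle genes, so their frequency here was not an independent test. RefSeq promoter windows (GRCm38.p6, 250 bases before to 50 bases after each annotated start) were matched by symbol for 42 of the 50 genes. The first letters searched were TTTGAA on either strand, the cell cycle genes homology region (CHR) bound by MuvB complexes. They stood in the window of 31 of 42 mitotic genes (73.8%) and of 20.2% of all 27025 genes with a window. Within 50 bases either side of the start, 28 of 42 held them (66.7%), against 5.72% of all genes. The related letters TTCGAA stood in 4 of 42 windows (9.52%), against 1.8%. CCAAT on either strand, the box bound by NF-Y, stood in 31 of 42 (73.8%), against 41.1% of all genes. A match describes letters, not a bound site.

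The stretches below, from 100 bases before to 30 after the start, show where these letters lie in genes of different roles and library patterns. Cdk1 kept close to the average of the 50, Ccnb2, Cdc20 and Cenpa were highest in HET replicate 1, and Kif15 and Top2a spanned wide ranges. Bub3 and Cenpe were among the 3 of the 50 genes whose KO libraries all lay above the HET libraries, as in 8.1% of all genes tested. Ube2c belongs with Cdc20 in anaphase. Capitals mark TTTGAA (or TTCAAA, its reverse complement) and CCAAT (or ATTGG), and each is written 5′ to 3′ on the gene's strand.
Cdk1: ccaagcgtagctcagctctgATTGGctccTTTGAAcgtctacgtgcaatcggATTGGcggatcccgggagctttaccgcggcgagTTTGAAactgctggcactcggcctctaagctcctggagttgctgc
Ccnb2: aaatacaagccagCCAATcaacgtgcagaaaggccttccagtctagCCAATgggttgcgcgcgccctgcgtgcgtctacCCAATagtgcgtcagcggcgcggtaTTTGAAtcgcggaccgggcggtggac
Cdc20: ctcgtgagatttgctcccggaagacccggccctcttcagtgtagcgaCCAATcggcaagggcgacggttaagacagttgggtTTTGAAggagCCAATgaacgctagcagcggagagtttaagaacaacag
Ube2c: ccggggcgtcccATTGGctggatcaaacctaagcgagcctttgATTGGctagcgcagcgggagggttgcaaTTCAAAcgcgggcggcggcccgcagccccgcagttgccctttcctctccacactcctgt
Cenpa: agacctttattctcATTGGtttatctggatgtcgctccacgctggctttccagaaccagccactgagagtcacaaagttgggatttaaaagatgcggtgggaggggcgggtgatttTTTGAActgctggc
Kif15: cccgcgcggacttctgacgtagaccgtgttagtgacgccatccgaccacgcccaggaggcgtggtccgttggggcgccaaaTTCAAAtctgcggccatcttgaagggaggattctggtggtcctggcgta
Top2a: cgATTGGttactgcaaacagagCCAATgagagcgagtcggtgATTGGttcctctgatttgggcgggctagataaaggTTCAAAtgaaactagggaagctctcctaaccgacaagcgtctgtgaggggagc
Bub3: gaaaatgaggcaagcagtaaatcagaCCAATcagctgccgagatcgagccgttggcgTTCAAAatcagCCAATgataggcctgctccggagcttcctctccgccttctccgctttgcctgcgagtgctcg
Cenpe: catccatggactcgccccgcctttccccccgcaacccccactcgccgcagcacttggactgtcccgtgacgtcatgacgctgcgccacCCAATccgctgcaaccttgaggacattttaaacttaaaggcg
These lie in GRCm38 for Cdk1 at chr10:69352883-69353012 on the minus strand, Ccnb2 at chr9:70421525-70421654 on the minus strand, Cdc20 at chr4:118437314-118437443 on the minus strand, Ube2c at chr2:164769829-164769958 on the plus strand, Cenpa at chr5:30666786-30666915 on the plus strand, Kif15 at chr9:122950981-122951110 on the plus strand, Top2a at chr11:99024160-99024289 on the minus strand, Bub3 at chr7:131560270-131560399 on the plus strand, Cenpe at chr3:135212463-135212592 on the plus strand.

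The CHR letters stood close to the start in Cdk1, Ccnb2, Cdc20, Ube2c, Cenpa, Kif15 and Top2a, the spacing and number of CCAAT boxes differed among them, and the Kif15 stretch had none. Bub3, which varied least between libraries, also held the CHR letters and a pair of CCAAT boxes at the start shown, 1 of its 2 listed starts. Cenpe held CCAAT but no CHR letters in its whole window. The other windows without TTTGAA were those of Birc5, Bub1, Ccnb1, Cenpk, Cenpm, Knstrn, Mad2l1, Nuf2, Nusap1 and Pttg1.

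Among the 8 regulators of mitotic entry, the median log2 fold change was 0.87 and none passed the adjusted threshold. Foxm1, the transcription factor that activates this gene programme, had 62.6, 10.3 and 31.6 CPM in HET (replicates 1, 2 and 3 in that order, here and below) and 84.9, 160.3 and 43.4 CPM in KO. HET replicate 1 lay between KO replicates 3 and 1, so the groups overlapped. The fitted difference of 1.47 ± 0.74 (SE) on the log2 scale was the largest of this group (adjusted p 0.593 in edgeR). Cdk1, the kinase that drives cells into mitosis, stood at 141.8, 22.4 and 60.9 CPM in HET and at 135.5, 251.0 and 83.4 CPM in KO. KO replicate 1 was below HET replicate 1, and KO replicate 2 stood above all other libraries. The log2 fold change of Cdk1 was 1.06 ± 0.71 (SE; adjusted p 0.658 in edgeR). Ccnb1, its cyclin B1 partner, stood at 34.7, 4.89 and 18.5 CPM in HET and at 38.6, 53.9 and 28.3 CPM in KO, with KO replicate 3 under HET replicate 1 (log2 fold change 1.06 ± 0.67, adjusted p 0.64 in edgeR).

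Cyclin B2 and the phosphatase that activates CDK1 did not peak in KO replicate 2. Ccnb2 stood at 41.7, 3.55 and 18.2 CPM in HET and at 37.7, 31.4 and 15.1 CPM in KO. Cdc25c, the phosphatase gene, stood at 10.7, 0.882 and 3.53 CPM in HET and at 7.08, 6.95 and 3.65 CPM in KO. For both genes the highest library was HET replicate 1, and their log2 fold changes, 0.41 for Ccnb2 and 0.23 for Cdc25c, were among the smallest of the 50. Cdc25c had the lowest count of all, 31 in HET replicate 2. The other 3 entry genes, Ccna2 (cyclin A2), Plk1 (Polo-like kinase) and Aurka (Aurora A, which builds the spindle poles), had log2 fold changes of 0.93, 0.81 and 0.76 and were highest in KO replicate 2.

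The spindle checkpoint, which delays anaphase until all kinetochores are attached, was represented by 5 genes with a median log2 fold change of 0.78. Bub3 (chromosome 7, 131560222 to 131571895 on the plus strand, GRCm38), a checkpoint scaffold, stood at 85.7, 75.9 and 79.9 CPM in HET and at 92.9, 150.2 and 107.0 CPM in KO. Every KO library lay above every HET library, a pattern that 3 of the 50 genes showed and 8.1% of all genes tested. This count became 43 when HET replicate 1 was left out, and 11 when KO replicate 3 was left out. In those fits 32.7% and 33.5% of all genes did not overlap in either direction, against 15.5% with all 6 libraries. The means of Bub3 were 80.5 ± 4.9 CPM in HET and 116.7 ± 29.9 CPM in KO (SD, n = 3 each). Bub3 differed from the rest in how little it varied, since its highest library exceeded its lowest by a ratio of 1.98, against a median of 11.4 over the 50. The log2 fold change of 0.54 ± 0.23 (SE) had an unadjusted p of 0.0574, the smallest of the 50, and an adjusted p of 0.585 in edgeR.

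Mad2l1, the MAD2 protein that sequesters CDC20, stood at 53.1, 14.8 and 30.2 CPM in HET and at 49.7, 120.1 and 40.0 CPM in KO. KO replicates 1 and 3 both lay under HET replicate 1, so the groups overlapped. Mad2l1 had a log2 fold change of 1.1 ± 0.6 (SE; adjusted p 0.603 in edgeR). The checkpoint kinase genes Bub1 and Ttk and the BUBR1 gene Bub1b had log2 fold changes of 0.75, 1.21 and 0.78. In each of them HET replicate 2 was the lowest library and KO replicate 2 the highest.

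The 4 genes of anaphase had the smallest group median, 0.60. Cdc20, the activator of the anaphase-promoting complex, stood at 41.4, 5.43 and 19.5 CPM in HET and at 28.1, 39.6 and 27.8 CPM in KO. HET replicate 1 was its highest library, and the 3 KO libraries lay between HET replicates 3 and 1. Ube2c, the ubiquitin-conjugating enzyme of that complex, stood at 38.2, 5.52 and 14.4 CPM in HET and at 25.0, 42.2 and 25.5 CPM in KO, again with HET replicate 1 above KO replicates 1 and 3. The log2 fold changes were 0.53 ± 0.67 (SE) for Cdc20 and 0.67 ± 0.68 (SE) for Ube2c, each smaller than its error. Espl1, the separase that cuts cohesin, stood at 24.0, 3.41 and 8.35 CPM in HET and at 21.9, 45.6 and 10.1 CPM in KO, with KO replicate 2 alone above HET replicate 1. Pttg1, the securin that restrains separase, was less variable, at 19.3, 8.11 and 9.14 CPM in HET and 19.7, 15.9 and 8.33 CPM in KO. In Pttg1, KO replicate 3 was nearly as low as HET replicate 2, and KO replicate 1 was the highest. The fitted log2 difference, 0.27 ± 0.48 (SE), was smaller than its error.

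Of the 10 centromere and kinetochore genes, which tie chromosomes to spindle microtubules, Cenpe and Cenpk had KO libraries that all lay above the HET libraries. With Bub3 they made up the 3 such genes of the 50, while 8.1% of all genes tested showed the pattern. Cenpe (chromosome 3, 135212537 to 135273611, plus strand), a kinetochore motor, stood at 27.2, 6.0 and 17.8 CPM in HET and at 31.4, 40.6 and 38.1 CPM in KO. The gap between HET replicate 1 and KO replicate 1 was narrow next to the spread within HET, and KO replicate 3 was almost as high as KO replicate 2. The means were 17.0 ± 10.6 and 36.7 ± 4.74 CPM (SD, n = 3 each), and the log2 fold change of 1.11 ± 0.52 (SE) had an adjusted p of 0.589 in edgeR. Cenpe kept the largest log2 fold change, 0.64, with HET replicate 2 and KO replicate 2 left out.

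Cenpk (chromosome 13, 104228611 to 104252392, plus strand), a protein of the constitutive centromere network, stood at 3.19, 0.939 and 2.82 CPM in HET and at 4.25, 11.8 and 3.33 CPM in KO. KO replicate 3 was only just above HET replicate 1, and KO replicate 2 stood far above the rest. The log2 fold change of Cenpk, 1.48 ± 0.69 (SE), was the largest of the 50 (adjusted p 0.589 in edgeR). Cenpf, a large kinetochore and nuclear matrix protein, stood at 36.0, 5.83 and 22.2 CPM in HET and at 28.3, 66.0 and 35.4 CPM in KO, with HET replicate 1 above KO replicates 1 and 3. Cenpa, the centromeric histone H3 variant, stood at 49.0, 5.66 and 23.7 CPM in HET and at 42.9, 43.2 and 20.9 CPM in KO. Its highest library was HET replicate 1, and KO replicates 1 and 2 were level. The 4 subunits of the NDC80 complex, the direct microtubule binder, had log2 fold changes of 0.80 for Ndc80, 0.71 for Nuf2, 0.60 for Spc24 and 0.98 for Spc25. Cenpm and Knstrn, with 0.58 and 0.68, completed the group.

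The chromosomal passenger complex, which corrects faulty attachments and later directs cytokinesis, had a median log2 fold change of 1.1 over its 4 genes. Aurkb, the Aurora B kinase, stood at 36.5, 3.36 and 12.6 CPM in HET and at 32.4, 93.6 and 14.3 CPM in KO. KO replicate 2 exceeded KO replicate 3 by a ratio of 6.56, the widest such ratio among the 50, while KO replicates 1 and 3 stayed under HET replicate 1. Aurkb had a log2 fold change of 1.42 ± 0.99 (SE; adjusted p 0.663 in edgeR). Birc5, survivin, stood at 53.3, 4.61 and 24.0 CPM in HET and at 57.9, 102.7 and 32.6 CPM in KO, with KO replicate 1 slightly above HET replicate 1. Incenp, the scaffold, and Cdca8, borealin, had log2 fold changes of 0.96 and 0.86.

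**Figure D3:**
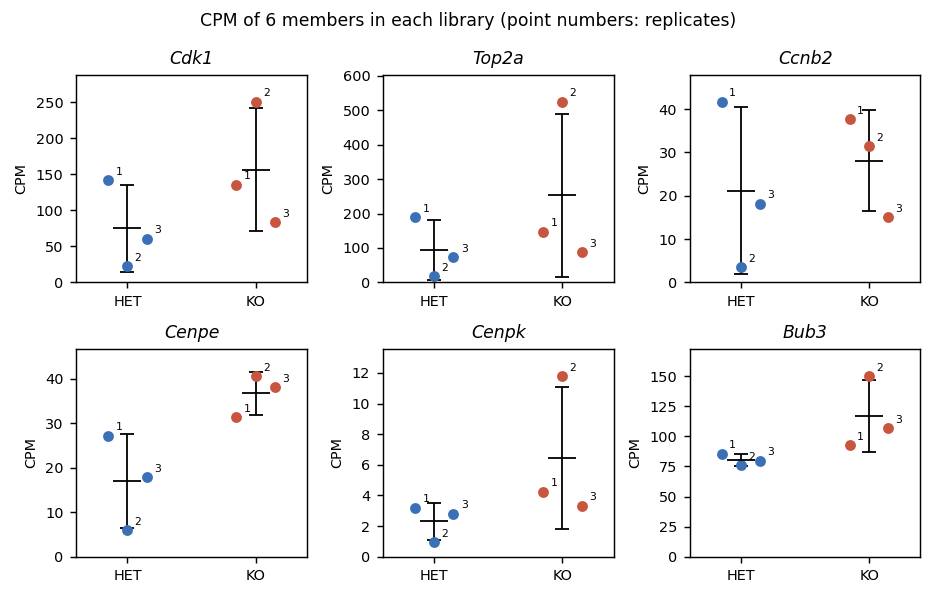
CPM (y axis, from 0) of Cdk1, Top2a, Ccnb2, Cenpe, Cenpk and Bub3 in each library, with the replicate number beside each point and the mean ± SD of 3 libraries as bars. The labels overlap in the upper row, and in the lower row every KO point lies above every HET point. Of the 50 mitotic genes, 3 showed the latter pattern, against 8.1% of all genes tested.

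The 10 mitotic kinesins, motors that move along microtubules, had a median log2 fold change of 1.05. Kif11 (Eg5), which pushes the spindle poles apart, stood at 39.4, 4.61 and 18.6 CPM in HET and at 34.6, 110.1 and 24.3 CPM in KO. Kif20b, a kinesin of the midzone, stood at 21.5, 4.1 and 14.9 CPM in HET and at 21.6, 57.6 and 20.1 CPM in KO, so that KO replicates 1 and 3 were level with HET replicate 1. The log2 fold changes were 1.43 ± 0.88 (SE) for Kif11 and 1.29 ± 0.70 (SE) for Kif20b, with adjusted p of 0.632 and 0.6 in edgeR. Kif20a, which carries the passenger complex to the midzone, stood at 94.4, 11.3 and 53.0 CPM in HET and at 99.4, 81.6 and 46.7 CPM in KO. Its KO replicate 2 value lay under both HET replicate 1 and KO replicate 1, unlike that of Kif11. The exons of Kif20a overlapped those of Cdc23 on the opposite strand over 29.3% of their length, and the labels do not say whether counting used strand. Cdc23 itself lay between 64.2 and 87.6 CPM in the 6 libraries. Exons of other members also overlapped opposite-strand genes, among them Ube2c (22.8%), Kif4 (15.1%), Cdc25c (12.7%), Ccna2 (12.5%) and Prc1 (11.1%). Pdzd11, opposite Kif4, had 44.5 CPM in HET replicate 2, where Kif4 had 4.72 CPM. Tnnc2, opposite Ube2c, had at most 0.0775 CPM.

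The other kinesins were Kif2c and Kif18b, which shorten microtubule ends, the chromokinesins Kif4 and Kif22, and Kif14, Kif15 and Kif23. Their log2 fold changes ran from 0.55 for Kif14 to 1.42 for Kif18b. Kif15, which can support the bipolar spindle beside Kif11, stood at 16.4, 1.08 and 6.82 CPM in HET and at 16.4, 31.4 and 8.76 CPM in KO, so HET replicate 1 and KO replicate 1 were equal at the printed precision. Kif14 stood at 19.7, 1.42 and 5.61 CPM in HET and at 8.28, 24.4 and 6.26 CPM in KO. Its log2 fold change without HET replicate 2 and KO replicate 2 was -0.79, the lowest of the 50.

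Among the 4 spindle microtubule proteins, with a median log2 fold change of 0.82, Prc1, which bundles midzone microtubules, stood at 100.4, 15.1 and 50.5 CPM in HET and at 76.4, 171.5 and 67.8 CPM in KO. Nusap1, which links microtubules to chromosomes, stood at 27.5, 4.75 and 15.9 CPM in HET and at 22.8, 57.6 and 16.7 CPM in KO. In both genes KO replicates 1 and 3 lay between HET replicates 3 and 1. Their log2 fold changes were 0.93 ± 0.70 (SE) and 1.01 ± 0.73 (SE). Tpx2, which activates Aurora A, and Hmmr, a spindle-associated hyaluronan receptor, had log2 fold changes of 0.67 and 0.72.

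The 3 cytokinesis genes act on the contractile ring and had a median log2 fold change of 1.00. Ect2, the exchange factor that activates RhoA, stood at 19.8, 3.41 and 9.57 CPM in HET and at 23.4, 43.0 and 16.8 CPM in KO, with KO replicate 3 under HET replicate 1. Ect2 had a log2 fold change of 1.35 ± 0.68 (SE; adjusted p 0.593 in edgeR). Anln, anillin, stood at 135.6, 19.9 and 65.7 CPM in HET and at 147.3, 221.3 and 72.6 CPM in KO, with the same overlap. Racgap1, the partner of Kif23 in centralspindlin, had a log2 fold change of 0.69.

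The 2 genes of the mitotic chromosome had the largest group median, 1.4. Top2a, topoisomerase II alpha, which untangles sister chromatids, stood at 188.5, 17.8 and 73.7 CPM in HET and at 147.6, 524.4 and 88.5 CPM in KO. Mki67, which coats mitotic chromosomes and encodes the Ki-67 proliferation antigen, stood at 167.9, 19.1 and 76.0 CPM in HET and at 138.0, 429.0 and 104.3 CPM in KO. In both genes KO replicates 1 and 3 lay between HET replicates 3 and 1, and KO replicate 2 alone was above the HET range. The highest library of Top2a exceeded its lowest by a ratio of 29.5, the widest among the 50. The log2 fold changes were 1.44 ± 0.98 (SE) for Top2a and 1.35 ± 0.87 (SE) for Mki67, with adjusted p of 0.658 and 0.643 in edgeR.

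Apart from the common library pattern, members differed in how closely they followed it. Log2 levels were centred on each gene's own mean over the 6 libraries, and the average of the 50 centred values in each library was subtracted. The SD of what remained over the 6 libraries was 0.11 for Kif4, the smallest, and 0.12 for both Cdk1 and Plk1. It was largest for Bub3 (0.98) and Pttg1 (0.85), whose centred values in HET replicate 2 stood 1.78 and 1.5 log2 units above the 50-gene average there. In KO replicate 2, the centred values of Top2a and Aurkb stood 0.89 and 0.84 above the average, and that of Pttg1 stood 1.02 below it. The 6 genes that were not highest in KO replicate 2 were Ccnb2, Cdc25c, Cdc20 and Cenpa, all highest in HET replicate 1, and Kif20a and Pttg1, both highest in KO replicate 1.

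Levels were compared between genes as CPM per kilobase of exon, as means over the 6 libraries. Cdk1 was the most abundant at 23.5 ± 16.3 (SD, n = 6), and Cenpk the least abundant at 0.839 ± 0.725. Bub3 held rank 10 in this order at 14.1 ± 3.93. The SDs of neighbours in the order were larger than the steps between them, but these SDs include the library pattern that the genes shared. They therefore do not tell how firmly the order holds.

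The pattern extended beyond the 50 genes. Of 123 other mitotic genes tested, 108 had a positive and 15 a negative fold change, against 50.9% positive among all genes. Their median log2 fold change was 0.72, and none passed the adjusted threshold in edgeR. At an unadjusted p under 0.05 in edgeR, 7 of the 123 were higher, against 4.3% of all genes. In addition, 2 of the 123 were lower, and 8.59% of all genes reached that level in either direction. HET replicate 2 was the lowest library for 90 of the 123 and KO replicate 2 the highest for 96. All 8 condensin genes, which compact chromosomes, had a positive fold change, from 0.10 for Ncaph2 to 1.48 for Ncapd2 (median 1.2). Other kinetochore genes were positive for 29 of 30 (median 0.96), from -0.33 for Cenpo to 2.32 for Cenpu. The list of other spindle and centrosome genes was positive for 33 of 36 (median 0.68). It ran from -0.51 for Kif1c, a transport kinesin that the list also held, to 1.36 for Haus5. Other mitotic kinases and regulators were positive for 18 of 22 (median 0.85), from -1.06 for Nek9 to 1.87 for Mybl2, which encodes B-MYB. Cks1b, a CDK subunit, had the smallest unadjusted p of these lists, 0.00989, with an adjusted p of 0.579 in edgeR and KO libraries that all lay above the HET libraries.

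The 11 cohesin genes had a median of 0.40, from -0.07 for Stag2 to 1.73 for Cdca5 (sororin), with 10 positive. Their list mean ran from -0.81 in HET replicate 2 to 0.9 in KO replicate 2, close to the -1.12 to 0.91 of the other spindle and centrosome genes. The 16 genes of the anaphase-promoting complex and its regulators had a median of 0.09, with 10 positive, from -0.45 for Anapc13 to 1.97 for Fbxo5 (EMI1). The list mean of these 16 stayed between -0.28 and 0.26 over the 6 libraries, while that of the 50 genes ran from -2.12 to 1.37.

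DNA replication genes, which act earlier in the cycle, followed the same libraries. Of 22 tested, 21 had a positive fold change, with a median of 1.45, from -0.02 for Rrm2 to 2.15 for Cdc6, and none passed the adjusted threshold in edgeR. Their list mean was 0.34, -1.74 and -0.63 for HET 1, HET 2 and HET 3, and 0.38, 1.8 and -0.14 for KO 1, KO 2 and KO 3. Among 10 cell cycle inhibitors, 4 had a positive fold change and the median was -0.46. Their list mean was -0.25, 0.39 and 0.49 for HET 1, HET 2 and HET 3, and 0.05, -0.13 and -0.55 for KO 1, KO 2 and KO 3. The inhibitors did not share a library pattern. Cdkn1b, Cdkn2c, Cdkn2d and Rbl1 were highest in KO replicate 2, like most of the mitotic genes, at 97.0, 30.7, 34.6 and 47.6 CPM. Cdkn1a, the p21 inhibitor, stood at 417.8, 821.4 and 695.4 CPM in HET and at 589.6, 30.3 and 415.3 CPM in KO. It was highest in HET replicate 2 and lowest in KO replicate 2. Cdkn2a, Cdkn2b, Rb1 and Rbl2 were also highest in HET replicate 2, at 120.7, 125.6, 32.6 and 49.3 CPM, and Cdkn1c was highest in HET replicate 3, at 3.02 CPM. Cdkn2b, the p15 inhibitor, stood at 57.7, 125.6 and 71.5 CPM in HET and at 8.08, 17.2 and 25.6 CPM in KO, without overlap. This pattern of lower KO values was shown by 2 of the 10 inhibitors and by 7.42% of all genes. The other inhibitor was Rb1, where HET replicate 1 (17.5 CPM) lay just above KO replicate 1 (17.4 CPM). The log2 fold change of Cdkn2b was -2.33 ± 0.51 (SE; adjusted p 0.579 in edgeR and 0.00402 in DESeq2).

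**Figure D4:**
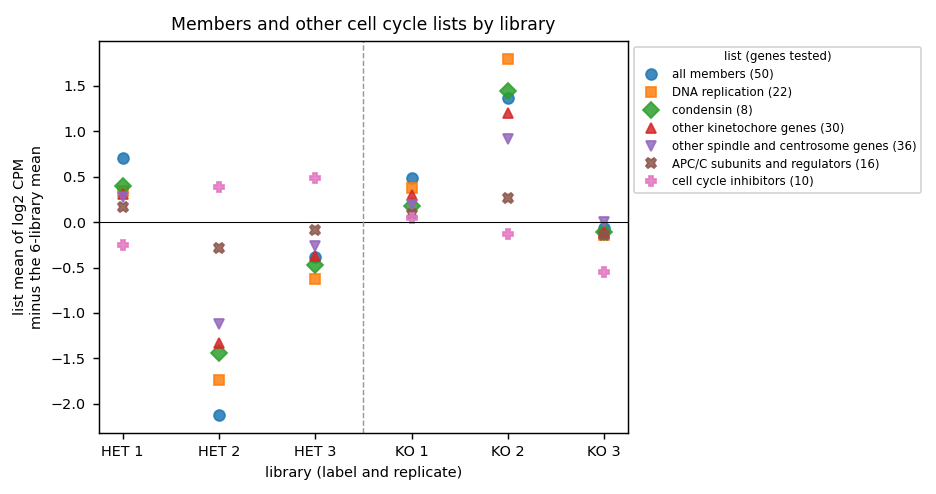
Mean of log2 CPM minus each gene's mean over the 6 libraries (y axis) for the 50 mitotic genes and 6 other cell cycle lists, in each library (x axis; the dashed line separates HET from KO). All lists shown except the cell cycle inhibitors have their low point in HET 2 and their high point in KO 2. The range is narrowest for the anaphase-promoting complex and its regulators, from -0.28 to 0.26.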

How the data were processed

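RNA was measured in 6 libraries, 3 labelled HET and 3 labelled KO. Per the labels' protocols, total RNA was depleted of ribosomal RNA and made into stranded libraries. Cutadapt 1.2.1, Bowtie2, Partek and the builds GRCm38 and mm10 are named in the submitters' processing notes; gene models and the method of counting are not given in the sources used here. Per gene and library, the authors deposited estimated counts (84.4% whole numbers), and their deposited RPKM values use a length proportional to the gene's span, introns included. Of 48408 rows, 30 had shifted values and were left out, and 7 repeated symbols were summed. The series design calls the samples technical triplicates, but their titles carry different numbers, apart from HET replicate 3 and KO replicate 3, which share 1. No label says that they came from separate cultures or animals, and p-values then measure only the spread between these samples, which may be technical. Replicate numbers follow accession order and pair nothing.

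Estimated counts were rounded, filtered with filterByExpr, scaled by TMM factors and tested with edgeR 4.0.16 in R 4.3.3 (quasi-likelihood, two-sided, Benjamini-Hochberg adjustment over 17584 genes, threshold 0.05). Log2 levels used a prior count of 2. Alternatives were other scalings and filters, DESeq2 1.42.0, voom and log2 RPKM fits in limma 3.58.1, a block term for the title number that recurs, and leave-outs of libraries (the pairs HET 2 with KO 2 and HET 2 with KO 3 were chosen after seeing the data). A floor of 3 counts was 0.0706 to 0.1202 CPM and covers counting error only. Exon lengths and gene positions came from GENCODE M21 (GRCm38). On simulated data for this comparison (17584 genes), edgeR called 2% of the genes given a 2-fold change, 30% at 4-fold, 78% at 8-fold and 94% at 16-fold. Each fold was given to 50 genes, up or down, with counts drawn independently per gene at the fitted dispersion trend. The mitotic genes instead varied together over the libraries, so these percentages are not rates for them. Per-library values were given in each role for the gene with the highest mean CPM, not scaled by exon length, and the 2 with the smallest unadjusted p. They were also given for exceptions to the common order, plus genes singled out after their values were seen. The genes, lists and rules were chosen with earlier results of these data known.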

Additional observations from a re-analysis of the deposited data

How the results depend on the processing

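With both HET replicate 2 and KO replicate 2 left out, chosen after seeing the data, 23 of the 50 genes had a positive fold change, the median log2 fold change was -0.0045, and these genes had negative log2 fold changes: -0.17 for Ccnb2, -0.25 for Ccna2, -0.13 for Plk1, -0.08 for Aurka, -0.39 for Cdc25c, -0.18 for Bub1, -0.11 for Bub1b, -0.12 for Cdc20, -0.05 for Ube2c, -0.0047 for Espl1, -0.0043 for Pttg1, -0.18 for Cenpa, -0.46 for Cenpm, -0.12 for Ndc80, -0.07 for Nuf2, -0.48 for Spc24, -0.34 for Knstrn, -0.06 for Aurkb, -0.17 for Incenp, -0.24 for Cdca8, -0.79 for Kif14, -0.0001 for Kif20a, -0.05 for Tpx2, -0.05 for Prc1, -0.12 for Nusap1, -0.17 for Racgap1, -0.14 for Top2a. With HET replicate 2 and KO replicate 3 left out, also chosen after seeing the data, 49 were positive, Cdc25c stood at -0.04, and 11 genes did not overlap between labels (37.8% of all genes did not, in either direction). Leaving out 1 library at a time, the number positive ran from 47 to 50 and the median from 0.41 to 1.73. In these, 6 genes changed sign, with log2 fold changes from -0.10 to 1.37 for Ccnb2, -0.27 to 1.43 for Cdc25c, -0.0034 to 0.77 for Pttg1, -0.03 to 1.29 for Cenpa, -0.02 to 1.51 for Cenpm and -0.28 to 1.89 for Kif14. The number that did not overlap, 3 with all libraries (15.5% of all genes in either direction), ran from 3 to 43 in these fits. It was 43 without HET replicate 1 (32.7% of all genes in either direction) and 11 without KO replicate 3 (33.5%). It was 5 with library size alone (17.3% of all genes), with log2(RPKM + 1) and with log2(RPKM + 0.1) (17.1% each), and 11 when both libraries with the same title number were left out (43.9%). Without HET replicate 1, 12 of the 50 and 8.61% of all genes had an unadjusted p under 0.05 in edgeR, and none passed the adjusted threshold. The cause was not tested. Library size alone moved the median of all genes to 0.15 and that of the 50 to 1.1. DESeq2 called 240 of all genes (1955 at an unadjusted p under 0.05) against 0 in edgeR (1511), and none of the 50 in either. No paired analysis was possible because HET and KO titles share only 1 number; a replicate block for that shared number gave 50 positive, a median of 0.87 and no calls. Libraries labelled KO that carry Tgfb1i1 and 3 libraries a label limit every comparison.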
